A study of Mus musculus with 12 samples.

Results

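The genes described here were those that stood far above the control in mouse embryonic stem cells after knockdown of either p400 or Tip60, the catalytic subunits of the Tip60-p400 chromatin complex, and whose names in the files are not those of several large gene families. They were chosen from the submitters' deposited log2 values. A probe qualified where the mean of the 4 p400 knockdown ratios was at least 1.5 and where the mean of Tip60 knockdown replicates 1, 2 and 4 was at least 1.5 above the mean of the 4 EGFP controls. Of 41174 probes on the array, 129 passed both thresholds (0.313%). Names of zinc finger, keratin, olfactory receptor, Pramel, Tcstv, deubiquitinase, heat shock and other families, and 5 single names, removed 25 of these. The remaining 104 probes carry 92 of the 27962 gene names given in the files, of which 61 are in the RefSeq gene table used here and 31 keep the name given in the files. The values that chose them are the knockdown differences themselves, so these differences are given below as descriptions without tests.

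The study compared 3 treatments of the mouse embryonic stem cell line E14. Each sample was a well of cells transfected for 72 hr with 0.33 ng/µl of esiRNA, a pool of short interfering RNAs made from a long double-stranded RNA, carried by Lipofectamine 2000. The p400 knockdown group held 4 samples, each hybridised on a 2-colour array against RNA of cells given esiRNA to EGFP, a jellyfish-derived reporter used here as the control target, with the dyes swapped between arrays. The Tip60 knockdown group held 4 samples and the EGFP control group 4 samples, each alone on a single-colour array. The submitters left Tip60 replicate 3 out of their comparison because its intensity profile stood apart, and it is given separately here. All groups were the same cell line and all received esiRNA and lipid, and the labels name no further agent or allele. The replicates are called biological by the submitters without further detail, so the p values below measure only the spread between these samples.

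Tip60, encoded by Kat5, is an acetyltransferase for histones H4 and H2A, and p400, encoded by Ep400, is an ATPase of the SWI/SNF2 class that exchanges histone H2A variants. They sit in the same multi-subunit complex, which binds promoters of many active genes and also of silent developmental genes in embryonic stem cells. Several of the families met below (PRAME-like, eIF1A-like, Sp110-like and USP17-like genes) are multicopy families of the mouse genome, and some eIF1A-like, PRAME-like and Tcstv genes are known as transcripts of the 2-cell embryo. Others of the members belong to differentiated tissues, such as the lectin Clec10a of macrophages.

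On the scanner values, the fitted p400 difference of the 104 member probes ran from 1.32 to 4.96 with a median of 2.99, on the scale of log2 knockdown over EGFP, where the median of all 27950 probes tested was 0. The Tip60 difference ran from 1.60 to 4.58 with a median of 2.67, against 0 over 25299 probes. Every member probe was called higher in both comparisons at an adjusted p under 0.05 (limma), where 18.1% of all probes were called higher in p400 knockdown (33.1% in either direction) and 13.2% in Tip60 knockdown (22.7% in either direction), and 9.06% of probes tested in both were higher in both. Since the same contrasts chose the members, nothing is read from these counts. At the edge of the rule, the members with the smallest of the deposited differences were H2bc4, the transcript TC1495159 and AK089990, at 1.502, 1.503 and 1.512 for Tip60. Just outside it lay 1700010D01Rik, ENSMUST00000057926 and AK029875, at 1.498, 1.496 and 1.483. The members therefore grade into the probes around them, with no gap at the threshold. In these bulk samples, more cells carrying a transcript and more RNA per cell cannot be told apart.

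The targeted genes were measured first as a check of the labels. Kat5 had levels of -0.19, -0.30 and -0.27 in Tip60 knockdown replicates 1, 2 and 4 and 0.04 in replicate 3, against 1.16, 1.15, 1.22 and 1.39 in the EGFP controls, a difference of -1.49 ± 0.07 (SE, limma adjusted p = 1.52e-05). A level is the log2 signal minus the 75th percentile of its array. Ep400 fell at 2 of its 3 tested probes in p400 knockdown, by 0.58 ± 0.09 (adjusted p = 0.00524) and by 0.72 ± 0.11 (adjusted p = 0.00575) on the log2 scale, and the other stood at 0.22 ± 0.08 (adjusted p = 0.0787). In p400 knockdown, Kat5 was also lower by a smaller amount (-0.43 ± 0.08, adjusted p = 0.0106). On the p400 arrays, 27598 to 30752 spots per channel passed the scanner's call of well above background, against 25073 to 30107 on the single-colour arrays and 22188 on Tip60 replicate 3. Of 11 embryonic stem cell markers tested, none rose and 3 fell in p400 knockdown (limma, with 1 higher at an unadjusted p under 0.05), and 1 rose and 2 fell in Tip60 knockdown, where 18.1% of all probes rose and 15.1% fell in p400 knockdown and 13.2% rose and 9.48% fell in Tip60 knockdown. Pou5f1 and Nanog, the factors that define the pluripotent state, stood at 0.04 ± 0.13 (adjusted p = 0.818) and 0.11 ± 0.14 (adjusted p = 0.575) in p400 knockdown, and at 0.06 ± 0.06 (adjusted p = 0.528) and 0.00 ± 0.07 (adjusted p = 0.985) in Tip60 knockdown. Sox2 fell by 0.21 ± 0.06 in p400 knockdown (adjusted p = 0.0491) and by 0.21 ± 0.05 in Tip60 knockdown (adjusted p = 0.0268), both calls being lost under most of the alternatives tried. The other falls in p400 knockdown were Dppa5a at -0.39 ± 0.08 (adjusted p = 0.0143) and Esrrb at -0.25 ± 0.08 (adjusted p = 0.0491). In Tip60 knockdown Klf4 also fell, at -0.48 ± 0.06 (adjusted p = 0.00198), and Tdgf1 rose, at 0.38 ± 0.06 (adjusted p = 0.00434).

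The members' values varied more over the p400 arrays than over the Tip60 arrays. Over the 104 member probes, the median log2 ratio was 2.88, 3.30, 3.40 and 2.28 on p400 replicates 1 to 4. Replicate 4 gave the lowest ratio for 94 members and replicate 1 for the other 10, while the highest ratio came from replicate 3 for 56 members, replicate 2 for 46 and replicate 1 for 2. The ratios of all tested probes were also narrower on replicate 4, with an SD of 0.33 against 0.47, 0.48 and 0.51 on replicates 1 to 3, and the part of this in the members' values was not tested. A member's SD over the p400 arrays had a median of 0.52, against 0.09 over the 3 Tip60 arrays and 0.12 over the 4 EGFP arrays. The p400 SD is of 2-colour ratios, which hold both RNAs and the dye swap. The others are of single-colour levels, so the measures are unlike. All 104 members were above 0 on every p400 array, 96 were at least 1 on every array and 85 at least 1.5. The rule used the mean of these same arrays, so these counts follow largely from it and are descriptions. A dye effect passed the limma test, at an adjusted p under 0.05, for no member and for 0.0429% of all tested probes. At an unadjusted p under 0.05 it passed for 7 members. Its fitted value was above 0 for 93 members, with a median of 0.17 against 0.01 over all tested probes. The shares of all probes at an unadjusted p under 0.05 and above 0 were not counted, so nothing is read from these 2 counts. Within the array slides, each of which held both groups, the median Tip60 difference of the members was 2.70 on slide 2 (replicates 2 and 4 against 2 EGFP samples) and 2.65 on slide 3 (replicate 1 against 2).

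**Figure D1:**
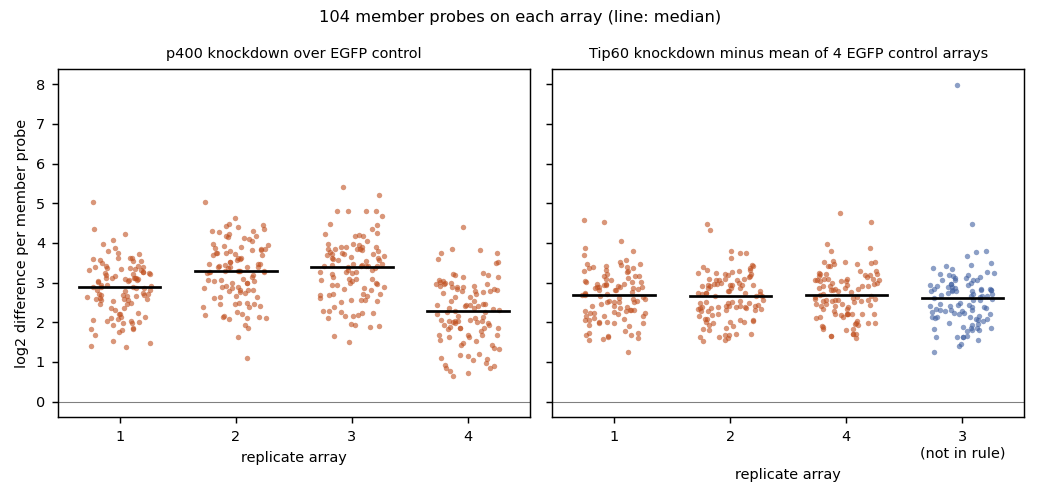
Each point is a member probe, as the log2 ratio of p400 knockdown over EGFP on an array (left) or the Tip60 level minus the mean of the 4 EGFP levels (right), with a line at the median of each array. The p400 medians lie between 2.28 on replicate 4 and 3.40 on replicate 3, and Tip60 replicate 3, which the rule did not use, has a median of 2.60 with Igh-VJ558 at 7.97.

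Tip60 replicate 3 took no part in the rule and gives the one set of knockdown values independent of it, although it is measured against the same EGFP arrays. All 104 members were above every EGFP array on this sample, and all were at least 1 above. Among all probes tested in the Tip60 comparison, 19.8% were above every EGFP array on replicate 3 (44.7% of all probes on the array), and among all probes on the array 27.5% were at least 1 above. Its median difference from the EGFP mean was 2.60 over the members, with a range of 1.26 to 7.97, where the median of all tested probes was -0.13. The value of replicate 3 lay within the range of replicates 1, 2 and 4 for 46 members, below it for 52 and above it for 6. With 1 sample against 4, an exact permutation test cannot go below p = 0.20, so no test was made.

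The control level of the members was mostly low. Their mean EGFP level ran from -6.20 to 5.40 with a median of -1.95, against -0.84 for all tested probes, and 23 of 104 lay above the 75th percentile of the arrays in EGFP RNA, whereas 59 did so in Tip60 knockdown RNA. On the single-colour arrays, 91 members were well above background on all 4 EGFP arrays, 6 on 3, 5 on 2 and 2 on 1. In the EGFP channel of the p400 arrays, 101 were well above background on all 4 arrays and 3 on 3 arrays. Most members were therefore measured in control cells and not read against an empty spot. The difference was larger in p400 knockdown than in Tip60 knockdown for 66 members, but the sets of arrays were of different kinds and were normalized apart, so this order is a description.

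The 3 genes that mark the set, Ankrd22, Clec10a and Csf2rb, are each known from blood cells. Their array probes are shown here because a gene's other probes, described further on, did not all behave like the member probe. Each is 60 bases in lower case, 5′ to 3′, as given in the deposited files, with its position on build mm7.
Ankrd22 member probe, chr19:33824226-33824285, minus strand: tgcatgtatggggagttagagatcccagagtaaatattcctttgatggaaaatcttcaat
Clec10a member probe, chr11:70252304-70252363, plus strand: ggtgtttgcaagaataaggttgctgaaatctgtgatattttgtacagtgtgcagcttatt
Csf2rb member probe, chr15:78429378-78429640, plus strand: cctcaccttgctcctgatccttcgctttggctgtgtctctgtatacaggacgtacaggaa
Csf2rb further probe 1, chr15:78431162-78431221, plus strand: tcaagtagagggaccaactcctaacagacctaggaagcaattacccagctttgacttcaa
Csf2rb further probe 2, chr15:78433690-78433749, plus strand: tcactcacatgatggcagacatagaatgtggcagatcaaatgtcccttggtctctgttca

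Ankrd22 encodes a small membrane protein with ankyrin repeats. Its log2 ratio of p400 knockdown over EGFP was 3.39, 4.17, 3.90 and 2.42 on replicates 1 to 4. The Ankrd22 level was 0.10, 0.02 and 0.24 in Tip60 knockdown replicates 1, 2 and 4 and 0.06 in replicate 3, against -3.24, -3.16, -3.46 and -3.25 in EGFP replicates 1 to 4. All Tip60 samples lay near the 75th percentile of their arrays and all EGFP samples more than 3 units lower, with no overlap. The fitted differences were 3.47 ± 0.27 (SE, n = 4 arrays, 11.1-fold) in p400 knockdown and 3.40 ± 0.09 (SE, n = 3 against 4, 10.6-fold) in Tip60 knockdown. The same layout of samples holds for the differences that follow.

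Clec10a is the macrophage galactose-type lectin, a C-type lectin that binds terminal galactose and N-acetylgalactosamine. Ratios of 4.23, 4.44, 4.48 and 2.99 were measured on p400 replicates 1 to 4. In Tip60 knockdown its level was 0.70, 0.53 and 0.72 in replicates 1, 2 and 4 and 0.73 in replicate 3, against -2.50, -2.38, -2.39 and -2.24 in EGFP cells. Replicate 4 was the low p400 array and replicate 2 the low Tip60 array, and neither came near the controls. The fitted differences were 4.03 ± 0.22 (16.4-fold) in p400 knockdown and 3.03 ± 0.08 (8.16-fold) in Tip60 knockdown.

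Csf2rb is the common beta chain shared by the receptors for GM-CSF, interleukin 3 and interleukin 5. Its member probe gave ratios of 3.54, 4.05, 4.36 and 3.14 on p400 replicates 1 to 4. The level in Tip60 knockdown was 0.50, 0.94 and 0.08 in replicates 1, 2 and 4 and 0.42 in replicate 3, against -2.88, -2.51, -2.05 and -2.36 in EGFP cells. The Tip60 and EGFP samples each spread over nearly 1 unit, wider than for most members, yet stayed apart. The fitted differences were 3.77 ± 0.18 (13.7-fold) in p400 knockdown and 2.95 ± 0.24 (7.75-fold) in Tip60 knockdown.

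Csf2rb has 2 further probes on the array, both listed above and both 3′ of the member probe on the genome. Further probe 1 was not well above background on any EGFP or Tip60 array of the comparison and stood at -0.06 ± 0.07 in p400 knockdown. Further probe 2 stood at -0.03 in p400 knockdown, with ratios of -0.11, 0.04, -0.06 and 0.00 on replicates 1 to 4, and at 1.49 in Tip60 knockdown. The p400 ratio of more than 3 on each array was therefore seen with the member probe and with neither of the others. The letters of the member probe span 263 bases of the genome, so they are split on the chromosome, while the further probes are unbroken runs of 60. The longest run of letters that the member probe shares with either further probe is 8 bases, and with the probe of the neighbouring paralog Csf2rb2 5 bases. Split probes made up 8.74% of the members with a position and 12.4% of all probes.

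The other genes of the beta common receptor pathway gave no like pattern. Of 21 tested genes of a list of 24, Csf2rb included, 7 rose and 3 fell in p400 knockdown, where 18.1% and 15.1% of all probes did so, and the list's median was 0.23 against 0 over all probes. In Tip60 knockdown 2 of 20 rose and 3 fell, where 13.2% and 9.48% of all probes did, with a median of 0.01. The rule chose Csf2rb by its rise, so its part in these counts was fixed. Csf2rb2, the mouse interleukin 3 receptor paralog, stood at -0.03 ± 0.07 (adjusted p = 0.777) in p400 knockdown and 1.30 ± 0.73 (adjusted p = 0.251) in Tip60 knockdown. The signalling inhibitor Socs1 rose by 1.19 ± 0.10 (adjusted p = 0.0013) in p400 knockdown and by 0.48 ± 0.08 (adjusted p = 0.00433) in Tip60 knockdown. The kinases Pim2 and Pim1 rose in p400 knockdown by 0.78 ± 0.07 (adjusted p = 0.00125) and 0.49 ± 0.08 (adjusted p = 0.00617). Socs2 fell, at -0.73 ± 0.10 (adjusted p = 0.00377) in p400 knockdown and -0.55 ± 0.11 (adjusted p = 0.0118) in Tip60 knockdown. Cish, another target of Stat5, also fell, at -0.39 ± 0.06 (adjusted p = 0.00667) in p400 knockdown and -0.45 ± 0.08 (adjusted p = 0.0056) in Tip60 knockdown. The phosphatase Ptpn6 fell in p400 knockdown, at -0.37 ± 0.08 (adjusted p = 0.0181), and the transcription factor Stat5b fell in Tip60 knockdown, at -0.32 ± 0.06 (adjusted p = 0.00949). The ligand genes Csf2 and Il5 and the receptor gene Il5ra did not pass the filter on low signal.

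Of the C-type lectins, 12 of 30 listed genes were tested in p400 knockdown and 8 in Tip60 knockdown, Clec10a included, and 4 rose and none fell in each (limma, with 0 lower at an unadjusted p under 0.05), where 18.1% of all probes rose in p400 knockdown and 13.2% in Tip60 knockdown. Asgr2, a subunit of the hepatic asialoglycoprotein receptor and a neighbour of Clec10a on chromosome 11, rose by 1.25 ± 0.11 (adjusted p = 0.00126) in p400 knockdown and by 0.97 ± 0.08 (adjusted p = 0.000199) in Tip60 knockdown. Asgr1 and Clec4f rose in p400 knockdown by 0.35 ± 0.07 (adjusted p = 0.0125) and 0.27 ± 0.07 (adjusted p = 0.0313). Clec11a, a growth factor for bone-forming cells, and the mannose receptor Mrc1 rose in Tip60 knockdown by 0.55 ± 0.07 (adjusted p = 0.0016) and 0.50 ± 0.11 (adjusted p = 0.016). Clec10a, at 4.03 ± 0.22 and 3.03 ± 0.08, stood above the other lectins measured. The rule chose it by these differences and the other lectins are not members, so this order and its own rise are descriptions.

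Markers of other cell types were measured beside these blood cell genes, and their counts stand against 18.1% of all probes rising and 15.1% falling in p400 knockdown and 13.2% rising and 9.48% falling in Tip60 knockdown. Of 21 myeloid markers, 13 were tested in p400 knockdown with 5 rising and none falling, and 8 in Tip60 knockdown with 3 rising and none falling (0 lower at an unadjusted p under 0.05 in limma in either comparison). Their summed linear signal, relative to the array's 75th percentile, was 4.70 to 5.04 in Tip60 knockdown replicates 1, 2 and 4 and 4.92 in replicate 3, against 3.95 to 4.37 in EGFP cells, and 5 of the 21 were well above background on no array. Fcgr3, an Fc receptor, rose by 0.38 ± 0.07 (adjusted p = 0.0103) in p400 knockdown and by 1.12 ± 0.10 (adjusted p = 0.000268) in Tip60 knockdown. The defining genes Ptprc, Spi1 and Tyrobp did not pass the filter on low signal in either comparison. Of 12 lymphoid markers, 6 were tested in p400 knockdown with 1 rising and 1 falling, and 5 in Tip60 knockdown with 1 rising. Their summed signal was 3.02 to 3.23 in Tip60 knockdown replicates 1, 2 and 4, against 3.03 to 3.40 in EGFP cells. Of 14 feeder fibroblast markers, 6 of 11 tested rose and 2 fell in p400 knockdown, and 5 of 11 rose and 1 fell in Tip60 knockdown, the last being Tagln at -0.73 ± 0.10 (adjusted p = 0.0122), which stood at 0.25 with the series matrix values. Their sum was 32.5 to 48.8 in Tip60 knockdown, against 31.3 to 58.3 in EGFP cells. Thy1, a surface glycoprotein of fibroblasts and lymphocytes, rose by 1.43 ± 0.10 (adjusted p = 0.000869) in p400 knockdown and by 1.25 ± 0.06 (adjusted p = 1.28e-05) in Tip60 knockdown. The part of these markers in the members' values was not tested.

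Of all members, A530040E14Rik had the highest fitted difference in both knockdowns. It lies at chr1:85211473-85211532 on the minus strand in mm7, beside the Sp100, Sp110 and Sp140 genes, whose proteins form nuclear bodies and carry chromatin-reading domains. Its log2 ratios were 5.03, 5.02, 5.40 and 4.40 on p400 replicates 1 to 4. Its level was 4.19, 4.15 and 4.42 in Tip60 knockdown replicates 1, 2 and 4 and 4.15 in replicate 3, against -0.24, -0.41, -0.31 and -0.35 in EGFP cells. Every p400 ratio was above 4 and every Tip60 sample was more than 4 units above every control. The fitted differences were 4.96 ± 0.12 (31.2-fold) in p400 knockdown and 4.58 ± 0.08 (23.9-fold) in Tip60 knockdown.

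The Sp110-type genes followed. Sp110 itself, listed in the files under an older clone name and a part of nuclear bodies that interferon induces, had ratios of 3.72, 3.75, 4.23 and 3.03 on p400 replicates 1 to 4. Its level was 2.14, 1.88 and 2.11 in Tip60 knockdown replicates 1, 2 and 4 and 2.06 in replicate 3, against -1.58, -1.36, -1.51 and -1.29 in EGFP cells. No sample of either knockdown overlapped the controls, and the fitted differences were 3.68 ± 0.14 and 3.48 ± 0.10 in p400 and Tip60 knockdown. C130026I21Rik and LOC545342, annotated on the array as Sp100-domain and Sp140-like transcripts, had fitted differences of 3.36 ± 0.21 and 3.11 ± 0.22 in p400 knockdown and of 3.77 ± 0.07 and 3.52 ± 0.10 in Tip60 knockdown. Both were near background in EGFP cells, where each was well above background on 3 of 4 single-colour arrays. A530032D15Rik, which lies between A530040E14Rik and LOC545342 on mm7, stood at 3.43 ± 0.29 in p400 knockdown and 3.84 ± 0.43 in Tip60 knockdown, where its EGFP levels ran from -6.56 to -4.48. Of the 8 probes annotated to this family that are not members, 2 were tested in both comparisons. TC1479186, a neighbour of A530040E14Rik, rose by 1.78 ± 0.15 in p400 knockdown (adjusted p = 0.00128) and by 2.69 ± 0.23 in Tip60 knockdown (adjusted p = 0.000259). The other, A630001G21Rik, stood at 0.09 and 0.32. The 3 probes of Sp100 were not tested in both comparisons.

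The eIF1A-like genes were split by copy. eIF1A is a translation initiation factor that acts in start codon scanning, and the array holds 9 probes annotated as eIF1A or like it. On mm7 the 5 member probes lie on random or unplaced sequence or chromosome 12, and the RefSeq gene table places Gm5662 on chromosome 12. The member probes had fitted differences of 3.01 to 4.07 in p400 knockdown and 1.98 to 2.50 in Tip60 knockdown. The other 4 probes, of Eif1a on chromosome 18 and Eif1ax on chromosome X, ran from -0.56 to -0.17 in p400 knockdown and from -0.19 to 0.05 in Tip60 knockdown, and none was higher in both. Gm5662 had ratios of 3.43, 4.18, 4.81 and 3.86 on p400 replicates 1 to 4. Its level was 5.36, 5.19 and 5.46 in Tip60 knockdown replicates 1, 2 and 4 and 5.31 in replicate 3, against 2.91, 2.96, 2.65 and 2.81 in EGFP cells. The copy was thus among the brighter members in control cells too, and its groups did not overlap. Fitted differences were 4.07 ± 0.21 in p400 knockdown and 2.50 ± 0.10 in Tip60 knockdown. The member probe that the files name Eif1a lies on chromosome 12 on mm7 and derives from a cDNA of 2-cell eggs. Its values (3.51 ± 0.14 and 2.08 ± 0.08) stand with the other member copies and not with the chromosome 18 gene of that name. Since the copies are alike in sequence, a probe may read more than 1 of them.

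Of the 104 member probes, 3 are annotated to cDNA libraries of 2-cell eggs (2.88%), against 10 of all 41174 probes (0.0243%). These are the probe named Eif1a, Gm428 and A430060F13Rik. The other 7 probes from such libraries include 5 that were tested in both comparisons, whose differences lay between -0.09 and 0.43 in p400 knockdown and between -0.03 and 0.24 in Tip60 knockdown. The library of a cDNA says where a clone was first sequenced and nothing of these cells.

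PRAME-like genes made up a further group. PRAME-family proteins are leucine-rich repeat proteins of germ cells and early embryos. Genes already named Pramel in the files were removed by the rule, and 4 of 15 annotated probes were members under other names. Pramel37 had ratios of 2.78, 3.91, 4.17 and 2.88 on p400 replicates 1 to 4. Its level was 2.46, 2.43 and 2.55 in Tip60 knockdown replicates 1, 2 and 4 and 2.36 in replicate 3, against -0.02, -0.07, -0.17 and 0.03 in EGFP cells. Pramel39 gave 2.90, 4.22, 3.86 and 2.85 on p400 replicates 1 to 4. For Pramel39 the level was 1.95, 1.63 and 1.83 in Tip60 knockdown replicates 1, 2 and 4 and 1.86 in replicate 3, against -0.87, -0.67, -0.85 and -0.56 in EGFP cells. Both genes were low on p400 replicates 1 and 4 and high on 2 and 3, and their Tip60 and EGFP samples did not overlap. Fitted differences were 3.44 ± 0.25 and 3.46 ± 0.24 in p400 knockdown and 2.54 ± 0.07 and 2.54 ± 0.11 in Tip60 knockdown. Among the 5 other PRAME-like probes tested in both comparisons, 4 were higher in both, namely Pramel4, Pramel6, Pramel7 and Pramel12. Their p400 differences were 2.03, 0.96, 1.76 and 1.1, and their Tip60 differences 2.52, 3.44, 3.09 and 0.55. The PRAME-like members ran from 3.24 to 3.46 in p400 knockdown and from 2.54 to 3.19 in Tip60 knockdown. Pramel6 thus stood above the members in Tip60 knockdown. Pramel13 stood at -0.03 and -0.11. AA792892, a transcript of the same stretch of chromosome 5, had ratios of 3.8, 4.43, 4.24 and 2.98 on p400 replicates 1 to 4. The AA792892 level was 0.74, 0.69 and 0.98 in Tip60 knockdown replicates 1, 2 and 4 and 0.70 in replicate 3, against -1.81, -2.01, -1.90 and -2.13 in EGFP cells, with differences of 3.86 ± 0.22 and 2.77 ± 0.10.

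Gm11487 and Gm428 lie near each other on mouse chromosome 4 and carry only predicted names. Gm11487 had ratios of 3.60, 4.48, 4.80 and 3.60 on p400 replicates 1 to 4. Its level was 2.72, 3.10 and 3.02 in Tip60 knockdown replicates 1, 2 and 4, against -0.03, -0.28, -0.03 and -0.35 in EGFP cells. Replicate 3 of Tip60 was lower, at 2.03, but above every control. Gm428 gave 3.88, 4.14, 4.68 and 3.49 on p400 replicates 1 to 4. For Gm428 the level was 5.48, 5.47 and 5.57 in Tip60 knockdown replicates 1, 2 and 4 and 5.46 in replicate 3, against 2.51, 2.57, 2.37 and 2.59 in EGFP cells. Gm428 thus stood well above the 75th percentile even in control cells, and the groups of both genes were apart. The fitted differences of Gm11487 were 4.12 ± 0.22 in p400 knockdown and 3.12 ± 0.12 in Tip60 knockdown, and those of Gm428 were 4.05 ± 0.16 and 3.00 ± 0.07.

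Promoter sequences were looked up for the members because several of those that moved together are copies of each other. RefSeq starts on GRCm38.p6 were found for 42 of the 61 named genes. The 250 bases before the start were alike for 3 pairs of members, with 245 of 251 aligned positions identical between Pramel37 and Pramel39 (97.6%), 242 of 252 between Gm11487 and Gm428 (96.0%) and 225 of 259 between A530032D15Rik and C130026I21Rik (86.9%). The first 2 pairs are shown, 5′ to 3′ on the strand of the gene, from RefSeq on GRCm38.p6. Capitals mark the letters TATAAA or the same letters read on the other strand, TTTATA, which overlap in TTTATAAA.
Pramel37, chr5:94070546-94070795, minus strand: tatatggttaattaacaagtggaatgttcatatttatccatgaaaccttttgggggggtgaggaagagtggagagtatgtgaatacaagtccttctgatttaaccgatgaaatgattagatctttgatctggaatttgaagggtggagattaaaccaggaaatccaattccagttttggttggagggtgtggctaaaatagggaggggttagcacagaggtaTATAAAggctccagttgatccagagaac
Pramel39, chr5:94306797-94307046, minus strand: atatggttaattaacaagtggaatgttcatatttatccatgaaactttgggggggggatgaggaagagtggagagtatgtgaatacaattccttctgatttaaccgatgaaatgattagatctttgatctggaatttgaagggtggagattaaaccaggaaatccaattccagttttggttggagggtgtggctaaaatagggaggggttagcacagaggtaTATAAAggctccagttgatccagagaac
Gm11487, chr4:73405073-73405322, minus strand: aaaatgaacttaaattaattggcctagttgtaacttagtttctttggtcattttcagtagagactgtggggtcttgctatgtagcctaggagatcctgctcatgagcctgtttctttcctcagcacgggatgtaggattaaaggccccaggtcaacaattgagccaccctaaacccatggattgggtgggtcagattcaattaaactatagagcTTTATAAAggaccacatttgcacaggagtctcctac
Gm428, chr4:73683264-73683513, plus strand: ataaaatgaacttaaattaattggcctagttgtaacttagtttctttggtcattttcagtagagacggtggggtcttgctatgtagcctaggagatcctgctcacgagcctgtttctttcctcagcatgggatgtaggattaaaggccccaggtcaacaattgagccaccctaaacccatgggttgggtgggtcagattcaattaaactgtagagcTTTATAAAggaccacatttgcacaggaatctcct

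In the window of 300 bases around the first listed start (250 before and 50 after), TATAAA on either strand was found in 7 of the 42 member promoters (16.7%), against 14.2% of all 27025 promoters in the table. Besides the 4 shown, these were Tacr3, Ddit4l and H4c9. CACGTG was in 7.14% of member promoters and 7.24% of all, and CCAAT, on either strand, in 33.3% and 37.9%. At most 5 CpG were found in 33.3% of member promoters and in 43.6% of all, with a median GC content of 53.7% and 52.7%. These shares are close to those of all promoters, and they describe letters in this window only.

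Positions on mm7 were uneven. Of the 104 member probes, 17 lie on random or unplaced sequence (16.3%), against 402 of all probes (0.976%), and 86 lie on assembled chromosomes. Among the gene names on assembled chromosomes, 20 fell into 8 groups of members within 1e+06 bases of each other. The largest spans chr5:93987338-94730391 and holds AA792892, Pramel37, Pramel48, Pramel39 and LOC625240, with no other tested gene inside it. The next spans chr1:85211473-85545710 and holds A530040E14Rik, A530032D15Rik and LOC545342. In the RefSeq gene table, Sp110 (chr1:85570735) and C130026I21Rik (chr1:85241286) also lie near A530040E14Rik (chr1:85106093). Their probes lie on random sequence in mm7 and so were not grouped. Other pairs were Gm11487 with Gm428 on chromosome 4, the camello-like acetyltransferases Nat8f2 and Nat8f4 on chromosome 6, ENSMUST00000067307 with TC1536985 on the same chromosome, Scamp1 with TC1469469 on chromosome 13, and Cpb2 with ENSMUST00000022576 on chromosome 14, whose probes lie together in chr14:69963966-69964120. AK089990 and Gpr182 on chromosome 10 also fell within this distance, with 28 tested genes that are not members between them. ENSMUST00000022576 is annotated on the array as carboxypeptidase U, so it and Cpb2 may be 1 gene under 2 names. The same may hold for ENSMUST00000067307 and TC1536985, which span chr6:61779402-61788731 with no other gene of the array. The groups therefore count names, and some may hold a single gene. Non-member probes within 1e+05 bases of a member were called higher in 61 of 255 cases in p400 knockdown (23.9%, against 17.7% of the probes that were neither members nor such neighbours) and in 36 of 236 in Tip60 knockdown (15.3%, against 12.8%). The neighbours' median difference was 0.03 and 0.00. Among the neighbours that rose in both were Rdh1, a retinol dehydrogenase gene beside Gpr182, and Oog1, an oocyte gene beside the member probe named Eif1a, at 1.83 ± 0.25 and 1.35 ± 0.21 in p400 knockdown (adjusted p = 0.00401 and 0.0058) and at 3.13 ± 0.19 and 2.84 ± 0.12 in Tip60 knockdown (adjusted p = 4.66e-05 and 5.71e-06).

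**Figure D2:**
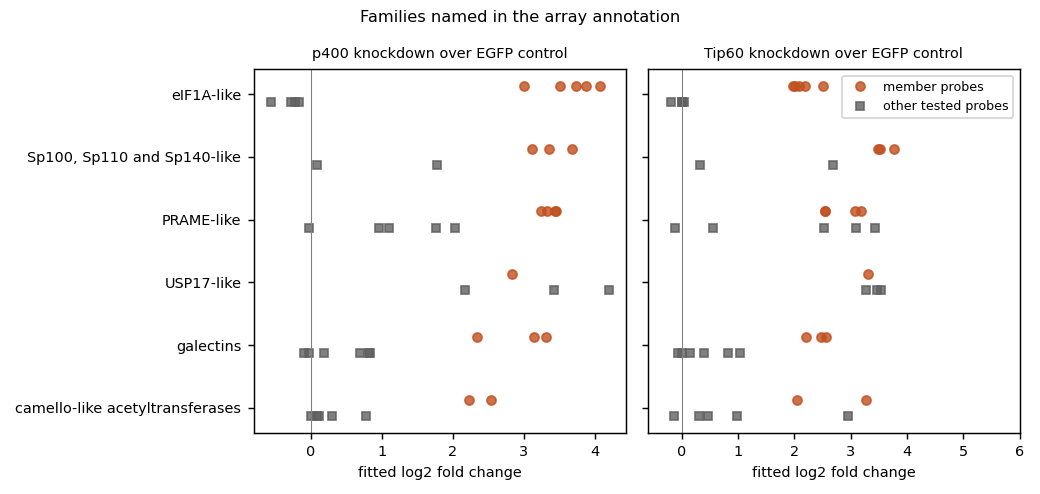
Each point is a probe annotated to a multicopy or named family, placed by its fitted log2 difference in p400 knockdown (left) and Tip60 knockdown (right), with member probes as circles and other probes tested in both comparisons as squares. The 5 eIF1A-like members lie between 3.01 and 4.07 in p400 knockdown and the other eIF1A probes between -0.56 and -0.17, whereas the 3 other USP17-like probes lie beside the member.

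A deubiquitinase of the USP17 type, ENSMUST00000053464, was a member under its transcript name at 2.84 ± 0.23 in p400 knockdown and 3.31 ± 0.11 in Tip60 knockdown. The 3 other USP17-like probes, which the rule left out by name, were all higher in both comparisons, at 2.17 to 4.20 in p400 knockdown and 3.27 to 3.53 in Tip60 knockdown. For a family with an excluded name, the values thus run on from the member to the probes left out. AF067063, unplaced on mm7 and on chromosome 13 in the RefSeq gene table, had ratios of 3.97, 4.39, 4.80 and 3.74 on p400 replicates 1 to 4. Its level was 2.62, 2.73 and 2.57 in Tip60 knockdown replicates 1, 2 and 4 and 2.56 in replicate 3, against -1.13, -0.71, -0.91 and -0.83 in EGFP cells. Its fitted differences were 4.23 ± 0.16 and 3.53 ± 0.10, and those of its other member probe 2.76 ± 0.07 and 2.60 ± 0.13.

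Further transcripts with uninformative names had high values. 0610040J01Rik on chromosome 5 had ratios of 4.08, 4.64, 4.81 and 3.81 on p400 replicates 1 to 4. Its level was 3.21, 3.11 and 3.21 in Tip60 knockdown replicates 1, 2 and 4 and 3.15 in replicate 3, against 0.43, 0.51, 0.35 and 0.48 in EGFP cells, and the groups were tight and far apart. Gm16367 had ratios of 3.61, 4.09, 4.46 and 2.97 on p400 replicates 1 to 4. The Gm16367 level was 0.00, -0.03 and 0.13 in Tip60 knockdown replicates 1, 2 and 4 and -0.07 in replicate 3, against -2.81, -3.11, -2.89 and -3.04 in EGFP cells. Fitted differences of 4.33 ± 0.17 and 3.78 ± 0.21 in p400 knockdown stood beside 2.74 ± 0.06 and 2.99 ± 0.09 in Tip60 knockdown.

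The remaining members with high values encode enzymes, receptors and signalling proteins. Zfp809, a zinc finger protein that silences murine retroviruses in embryonic cells, entered through an older name although the rule removes zinc finger names. Its ratios were 3.11, 3.74, 3.62 and 2.96 on p400 replicates 1 to 4, a difference of 3.36 ± 0.15. Its level was 1.85, 1.71 and 1.99 in Tip60 knockdown replicates 1, 2 and 4 and 1.84 in replicate 3, against -0.17, -0.22 and -0.26 in EGFP replicates 1, 2 and 4. The spot on EGFP replicate 3 was marked as an outlier by the scanner software and is missing from the fitted difference of 2.07 ± 0.09. The deposited values, which keep a low value for that array, give 2.83.

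Guca1a, an activator of guanylate cyclase in photoreceptors, had ratios of 3.04, 2.79, 3.69 and 2.45 on p400 replicates 1 to 4. Its level was 2.84, 2.83 and 2.81 in Tip60 knockdown replicates 1, 2 and 4 and 2.79 in replicate 3, against -0.20, -0.08, -0.20 and -0.20 in EGFP cells. These were among the tightest groups of the set, at 2.99 ± 0.12 and 2.99 ± 0.06. Echdc3, a mitochondrial protein of the enoyl-CoA hydratase family, had ratios of 3.35, 3.47, 3.73 and 2.71 on p400 replicates 1 to 4. The Echdc3 level was 1.48, 1.45 and 1.41 in Tip60 knockdown replicates 1, 2 and 4 and 1.45 in replicate 3, against -1.54, -1.39, -1.45 and -1.44 in EGFP cells. Its Tip60 and EGFP samples lay on either side of the 75th percentile, nearly 3 units apart, and the fitted differences were 3.32 ± 0.14 and 2.90 ± 0.06.

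Mgll, monoacylglycerol lipase, which breaks down the endocannabinoid 2-arachidonoylglycerol, had ratios of 3.25, 3.82, 3.82 and 2.79 on p400 replicates 1 to 4. Its level was 1.38, 1.45 and 1.5 in Tip60 knockdown replicates 1, 2 and 4 and 1.26 in replicate 3, against -1.31, -1.32, -1.40 and -1.35 in EGFP cells. The fitted differences of 3.42 ± 0.18 and 2.79 ± 0.06 were matched by its other member probe (3.39 ± 0.15 and 2.72 ± 0.07). Another Mgll probe was well above background on no EGFP or Tip60 array of the comparison and was not tested. Arhgef26, a guanine nucleotide exchange factor, had ratios of 2.65, 2.64, 3.33 and 1.87 on p400 replicates 1 to 4. The Arhgef26 level was 1.03, 1 and 0.99 in Tip60 knockdown replicates 1, 2 and 4 and 1.03 in replicate 3, against -1.88, -1.61, -1.96 and -1.71 in EGFP cells. Its 2 member probes stood at 2.62 ± 0.16 and 3.40 ± 0.12 in p400 knockdown and at 2.80 ± 0.09 and 2.48 ± 0.08 in Tip60 knockdown.

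Lgals4, a galectin of the intestinal epithelium, had ratios of 2.93, 3.71, 3.58 and 3.07 on p400 replicates 1 to 4. Its level was 4.05, 4.11 and 4.24 in Tip60 knockdown replicates 1, 2 and 4 and 3.98 in replicate 3, against 1.64, 1.69, 1.71 and 1.62 in EGFP cells. Even in controls this probe lay above the 75th percentile, and the Tip60 samples stood more than 2 units above them. Fitted differences were 3.32 ± 0.14 and 2.47 ± 0.06, those of its other member probe were 2.34 ± 0.18 and 2.20 ± 0.08, and the near-identical Lgals6 stood at 3.15 ± 0.12 and 2.56 ± 0.06. Of the 6 other galectin probes tested in both comparisons, Lgals3 and Lgals9 were higher in both, by at most 0.84 in p400 knockdown and 1.03 in Tip60 knockdown. Pdgfrl, a protein with homology to the ligand-binding part of the PDGF receptor, had ratios of 3.74, 3.93, 3.77 and 3.25 on p400 replicates 1 to 4. The Pdgfrl level was 2.69, 2.70 and 2.76 in Tip60 knockdown replicates 1, 2 and 4 and 2.73 in replicate 3, against 0.19, 0.22, 0.17 and 0.12 in EGFP cells. Its groups were narrow and apart, with differences of 3.67 ± 0.11 and 2.54 ± 0.05.

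Pif1, a DNA helicase that acts at telomeres and in mitochondria, had ratios of 3.12, 2.86, 3.97 and 2.65 on p400 replicates 1 to 4. Its level was 3.70, 3.45 and 3.40 in Tip60 knockdown replicates 1, 2 and 4 and 3.54 in replicate 3, against 0.83, 1.23, 0.90 and 1.31 in EGFP cells, with differences of 3.15 ± 0.14 and 2.45 ± 0.14. Cacna1s, the pore subunit of the skeletal muscle L-type calcium channel, had ratios of 3.04, 3.57, 3.55 and 2.76 on p400 replicates 1 to 4. The Cacna1s level was 2.50, 2.33 and 2.41 in Tip60 knockdown replicates 1, 2 and 4 and 2.34 in replicate 3, against -0.08, 0.12, -0.11 and 0.00 in EGFP cells, with differences of 3.23 ± 0.15 and 2.43 ± 0.08. Both genes stood near or above the 75th percentile in controls.

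Dcc, the netrin receptor, and Fgf1, acidic fibroblast growth factor, were among the dim members. Dcc had ratios of 2.72, 3.27, 3.45 and 2.53 on p400 replicates 1 to 4. Its level was -0.62, -0.77 and -0.70 in Tip60 knockdown replicates 1, 2 and 4 and -0.77 in replicate 3, against -3.87, -3.74, -4.06 and -3.96 in EGFP cells. Fgf1 had ratios of 2.66, 2.98, 3.08 and 2.04 on p400 replicates 1 to 4. The Fgf1 level was -0.39, -0.38 and -0.24 in Tip60 knockdown replicates 1, 2 and 4 and -0.49 in replicate 3, against -3.14, -3.50, -3.38 and -3.24 in EGFP cells. Neither member probe reached the 75th percentile in any sample, and both were well above background on all 4 EGFP arrays. The fitted differences were 2.99 ± 0.16 and 2.69 ± 0.16 in p400 knockdown and 3.21 ± 0.09 and 2.98 ± 0.10 in Tip60 knockdown. A further Fgf1 probe went the other way in p400 knockdown, at -0.38 ± 0.08 (limma adjusted p = 0.0131). It was well above background on no EGFP or Tip60 array of the comparison and was not tested in Tip60 knockdown.

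**Figure D3:**
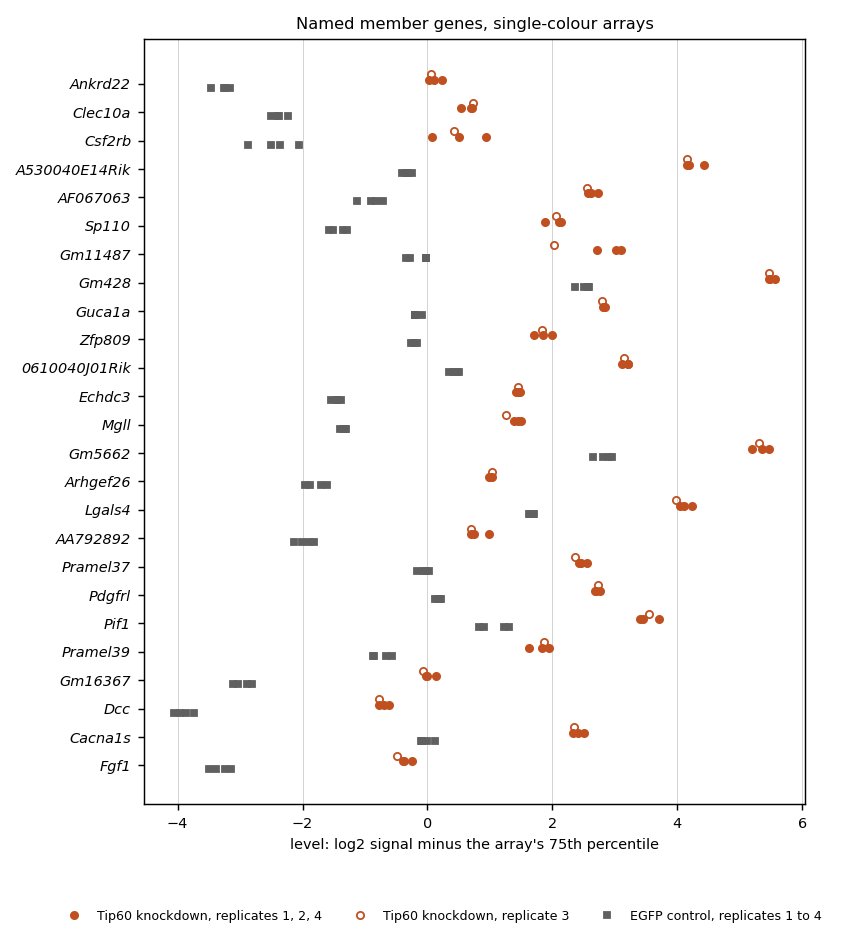
Levels (log2 signal minus the array's 75th percentile) of the 25 named member genes on the single-colour arrays, with Tip60 knockdown replicates 1, 2 and 4 as filled circles, replicate 3 as open circles and the 4 EGFP controls as squares. Knockdown and control samples do not overlap for any gene shown, from Fgf1 and Dcc below the 75th percentile in every sample to Gm428 and Gm5662 above it in every sample. The genes were chosen by this difference, so their separation is a description.

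**Figure D4:**
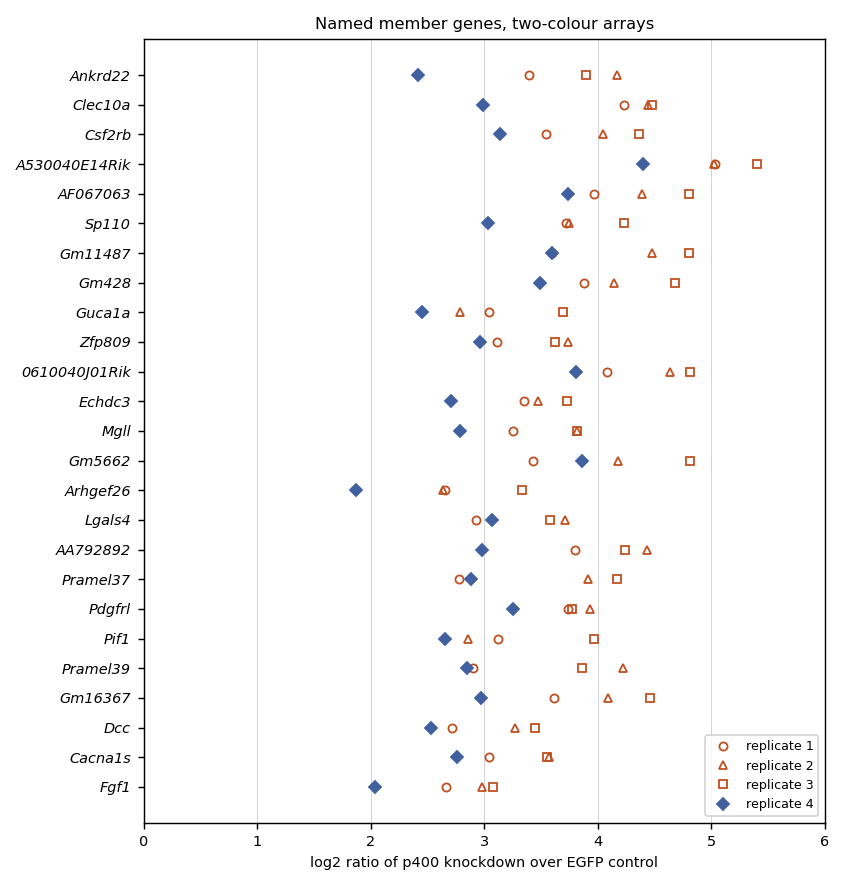
Log2 ratios of p400 knockdown over EGFP for the same 25 genes on the 4 2-colour arrays, with a symbol for each replicate. Replicate 4 (filled diamonds) is the lowest for most genes, as for Clec10a at 2.99, and every ratio shown is above 1.5. The genes were chosen by the mean of these arrays, so their height is a description.

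Genes of the nervous system were low in controls, with EGFP levels from -5.65 to -4.69 for Grm5, Tacr3 and Chrm3. Grm5, a metabotropic glutamate receptor, stood at 2.93 ± 0.20 in p400 knockdown and 3.24 ± 0.14 in Tip60 knockdown. Tacr3, the neurokinin 3 receptor, stood at 2.59 ± 0.25 and 3.39 ± 0.13. Chrm3, the muscarinic acetylcholine receptor 3, had the second-lowest p400 value of the members at 1.44 ± 0.19, and 3.12 ± 0.18 in Tip60 knockdown. Adcy2, an adenylate cyclase of brain, stood at 2.74 ± 0.19 and 2.58 ± 0.08, and Gpr182, a receptor of endothelial cells, at 2.28 ± 0.28 and 2.62 ± 0.07. Among these, Tacr3 was well above background on 2 of the 4 EGFP arrays and Chrm3 on 3. The further Grm5 probes stood at 0, 0.09 and -0.10 in p400 knockdown and at 0.70, 1.11 and 1.05 in Tip60 knockdown. Further probes of Tacr3 and Gpr182 stood at -0.07 and 0.09 in p400 knockdown. All of these were untested for low signal. Further probes of Chrm3 and Adcy2 were tested in p400 knockdown and stood at 0.44 ± 0.09 and 1.13 ± 0.20.

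Secreted and metabolic proteins were also among the members. The chemokine Ccl3 stood at 2.61 ± 0.19 in p400 knockdown and 3.19 ± 0.08 in Tip60 knockdown. Hdc, which makes histamine, stood at 1.84 ± 0.16 and 1.98 ± 0.06. The adipocyte hormone Adipoq had its lowest p400 ratio, 0.71, on replicate 4 and differences of 1.61 ± 0.23 and 2.96 ± 0.06. The gluconeogenic enzyme Fbp1 stood at 2.10 ± 0.13 and 1.82 ± 0.07, and Cpb2, a plasma carboxypeptidase that slows the lysis of clots, at 2.48 ± 0.10 and 1.71 ± 0.18. Ddit4l, an inhibitor of mTOR signalling, had differences of 2.25 and 2.46 for its 2 probes in p400 knockdown and of 1.65 and 1.63 in Tip60 knockdown. The 3 Tip60 arrays of Cpb2 spread less than its EGFP arrays, which ran from -1.51 to -0.77.

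Genes with general nuclear or cellular roles were brighter in controls. Nelfa, a subunit of the negative elongation factor, stood at 2.91 ± 0.13 in p400 knockdown and 1.67 ± 0.05 in Tip60 knockdown with EGFP levels from 2.12 to 2.17. Cwc22, a splicing factor, stood at 3.16 ± 0.09 and 1.92 ± 0.07. Ercc4, a nuclease of DNA repair, stood at 2.52 ± 0.10 and 1.74 ± 0.05, and the exonuclease-like Rexo1 at 2.72 ± 0.10 and 2.22 ± 0.06. Scamp1, a membrane protein of secretory vesicles, stood at 3.64 ± 0.14 and 2.39 ± 0.08. The histone genes H4c9 and H2bc4 had small Tip60 differences, at 1.63 ± 0.07 and 1.60 ± 0.07, beside 2.23 ± 0.14 and 1.65 ± 0.17 in p400 knockdown. Histone genes of the replication class share sequence, so a probe may read more than 1 copy.

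Further probes of the member genes were also measured. Of the 92 gene names, 31 have 44 further probes, of which 22 were tested in both comparisons. The same contrast chose the genes, so these values are descriptions. Of the 22 probes, 11 were at least 1 in both knockdowns and 4 lay within 0.5 of 0 in both. The share of all probes at least 1 in both was not counted. Some of the 11 passed the Tip60 filter only through the knockdown signal. Those of Cacna1s (1.47 and 2.97) and C130026I21Rik (1.70 and 3.17) were well above background on 0 and 1 EGFP arrays. The further probes not tested in both, held back by low signal, are not in these counts. Probes that followed the member included those of Nelfa (2.55 and 1.24 in p400 and Tip60 knockdown), Scamp1 (2.23 and 1.14) and Tbc1d12 (2.42 and 1.91). Probes that did not included those of Ercc4 (0.10 and 0.25), Zfp809 (0.55 and 0.03) and Eif1a on chromosome 18. Rexo1 differed by knockdown, with a further probe at 1.26 in p400 knockdown and 0.13 in Tip60 knockdown. Ankrd22 has a further probe at 0.27 and 0.10, which was well above background on no EGFP or Tip60 array of the comparison. A gene name on this array therefore covers probes whose values were not all alike, and the values above are those of the member probes.

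**Figure D5:**
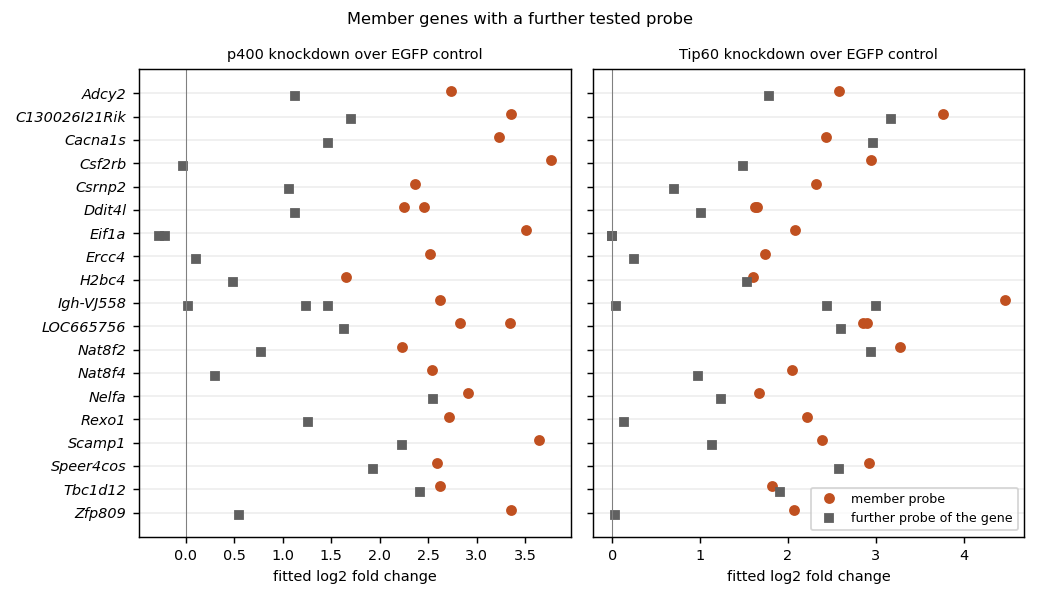
Fitted log2 differences in p400 knockdown (left) and Tip60 knockdown (right) of member probes (circles) and of further probes of the same genes that were tested in both comparisons (squares). The further probes of Ercc4 and of the chromosome 18 Eif1a lie near 0 in both, that of Csf2rb lies at -0.03 in p400 knockdown, and those of Nelfa and Tbc1d12 lie near the member probes.

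Igh-VJ558, annotated to an immunoglobulin heavy chain variable segment, stood apart on Tip60 replicate 3. Its member probe had ratios of 3.32, 2.90, 2.57 and 1.68 on p400 replicates 1 to 4, a difference of 2.62 ± 0.21. Its level was -1.63, -1.87 and -1.67 in Tip60 knockdown replicates 1, 2 and 4, against -5.60, -6.70, -6.07 and -6.42 in EGFP cells, a difference of 4.47 ± 0.24. Replicate 3 of Tip60 stood at 1.78, more than 3 units above the other knockdown samples. Only 1 of the 4 EGFP arrays was well above background. The 2 further probes that lie beside it on chromosome 12 stood at 1.24 and 1.47 in p400 knockdown and at 2.44 and 3.00 in Tip60 knockdown, whereas another tested probe of that name stood at 0.02 and 0.04.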

How the data were processed

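RNA of p400 knockdown, Tip60 knockdown and EGFP control cells was hybridised to Agilent mouse arrays of design 014868. Per the file headers, the deposited scanner files hold spot intensity from Agilent Feature Extraction 9.5.1.1 and, for the 2-colour arrays, a log10 ratio of red over green. The deposited series matrix holds log2 values (ratios of knockdown over EGFP for p400, single-colour levels otherwise) whose steps are not given in the sources used here, and it alone chose the members. Its column medians were 0 to 0.01 for the p400 arrays and 7.26 to 7.27 for the others, so its single-colour columns have been put on a common scale. The members and the gene lists were chosen with earlier results of these data known.

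For p400, intensities were corrected with normexp (offset 50), loess-normalized within arrays and fitted in limma 3.58.1 (R 4.3.3, data.table version 1.17.8) with a dye term, each ratio being turned to knockdown over EGFP by the dyes in the labels. For Tip60, the log2 processed signal minus the array's 75th percentile was compared between replicates 1, 2 and 4 and EGFP replicates 1 to 4. Control spots (1639 per array) and outlier spots were left out, and repeat spots were averaged per probe. Testing a probe required a signal well above background on 3 or more arrays of the knockdown or of the EGFP RNA, so dim genes entered mainly where bright in knockdown cells. Adjusted p values are two-sided, by Benjamini-Hochberg over all probes tested, with a threshold of 0.05. Errors are standard errors of the fit. Both fits were tested on simulated data. All table columns were matched to samples, leaving 0 unmatched.

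Probes were named by accession, symbol or unique synonym in the RefSeq genes given here (72 of 104 member probes) and otherwise keep the file's name. Probe positions are on mm7 per the file headers. Samples were given for Ankrd22, Clec10a, Csf2rb and the other reference-named genes with the highest of the smaller of both deposited differences, 25 in all, and other members were named by role. From each list, up to 3 rises and 3 falls with the highest change were named, each gene by its brightest tested probe. The arrays' number, and not a read depth, limits the precision. Alternatives for background, normalization, filter, dye, slide, replicate block, threshold and each array left out were run. The values of some members are not reported here.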

Additional observations from a re-analysis of the deposited data

Results flagged for a closer look

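In 83 pairs of a gene and a group of 4 arrays, 5 had an array far from the other 3 by Dixon's test, which chance gives in about 1 of 20 groups. Clec10a had a p400 ratio of 2.99 on replicate 4, where replicates 1 to 3 lay between 4.23 and 4.48. Its Tip60 level was 0.53 on replicate 2, with the others between 0.70 and 0.73. A530040E14Rik had a Tip60 level of 4.42 on replicate 4 and 4.15 to 4.19 on the others. Guca1a had an EGFP level of -0.08 on replicate 2 and -0.20 on the others. Igh-VJ558 had a Tip60 level of 1.78 on replicate 3, the array that the submitters left out, and -1.87 to -1.63 on the others. In each of these genes the knockdown and control samples stayed apart.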

How the results depend on the processing

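No member named with its samples changed direction under any alternative run. The alternatives reuse the arrays that chose these members for their rises, so this was largely fixed by the choice. The median p400 difference of the members was 2.99, and 3.53 with the deposited log10 ratios. The median Tip60 difference was 2.67, and 2.61 with quantile normalization, 2.13 with normexp, 2.15 with the series matrix, 2.54 with only probes well above background on all arrays, and 2.63 to 2.72 with an array left out. Probes called in p400 knockdown numbered 9262, and 3416 with arrays scaled to a common spread, and 4614 to 8406 with an array left out, the lowest without replicate 2. In Tip60 knockdown they numbered 5742, and 2237 within slide 2, 1730 within slide 3, 3635 without the filter on dim probes, and 3985 to 4765 with an array left out. Calls in p400 knockdown were 54.5% higher, against 43.2% with the deposited ratios, 29% with arrays centred on medians and 72.6% with scaled arrays. In Tip60 knockdown they were 58.2% higher, against 41.4% with quantile normalization, 45% with the series matrix, 72.2% without the filter on dim probes, 74.7% within slide 2, 96.2% within slide 3 and 82.5% with the replicate block. The rule gave 104 probes and 92 genes, 223 and 191 with a threshold of 1, 64 and 59 with a threshold of 2, and 99 to 110 probes and 87 to 98 genes with an array left out. With Tip60 replicate 3 included it gave 105 probes, 100 of them members, and with the scanner values 151, 101 of them members. Tagln, a fibroblast marker, stood at -0.73 in Tip60 knockdown and at 0.25 with the series matrix. The cause of these shifts was not tested.

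The labels do not say whether replicate numbers pair the samples, and the main fit did not pair them. Same-numbered Tip60 and EGFP arrays correlated at -0.26, -0.33 and -0.12 in their deviations. Each of these pairs lay on different slides, so the correlations cannot show whether the cultures were paired. With the replicate block, 2245 probes were called in Tip60 knockdown and the members' median was 2.68. Of the other values under the alternatives that left no array out, 1040 stayed the same, 121 moved and 73 were no longer past the threshold. Dim members are limited by signal over background, as some were not well above it on all EGFP arrays.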
